A study of Homo sapiens with 4 samples.

Results

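Cluster 4 is one of the cell groups in the authors' deposited annotation of single MM134 cells, and its members were taken as all cells that this annotation gives the cluster number 4. It held 734 of 8307 cells. Of these, 252 came from the estradiol library, 7.48% of its 3367 cells (exact 95% binomial interval 6.62 to 8.43%), and 482 came from the vehicle library, 9.76% of its 4940 cells (8.94 to 10.6%). The annotation called all 734 cells G2M, that is, in G2 phase or mitosis. They made up 252 of 1227 G2M cells with estradiol (20.5%) and 482 of 1674 with vehicle (28.8%). Cluster 0 held the largest number of the remaining G2M cells, 672 with estradiol and 773 with vehicle, and served as the nearest comparison.

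MM134 (MDA MB 134VI) is an established, estrogen receptor positive line of lobular breast carcinoma, wild type in these samples. Cells kept in phenol red-free medium with charcoal-stripped serum, which removes steroid hormones, received 100 nM estradiol or 0.01% ethanol, the vehicle, for 24 h. Each treatment gave 1 messenger RNA library, labelled as captured with a pan-cancer gene panel, and 1 matched library of DNA repair reads from the same cells by Haircut. With 1 library per treatment nothing could be tested across replicates: intervals below are 95% and cover counting error only, and a difference between treatments cannot be told apart from a difference between 2 libraries. How the authors made the clusters is not stated in any source used here; since they may rest on the genes of these same cells, the comparison of cluster 4 with other cells is given as a description.

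Cells that leave S phase load mitotic cyclins onto their kinase, condense chromosomes, build a spindle and hold the metaphase checkpoint until kinetochores are attached; the anaphase-promoting complex then has the cyclins degraded. Transcripts of these proteins accumulate through G2 and peak around mitosis, whereas those for replication factors and for replication-dependent histones belong to G1/S and S phase. In Haircut, DNA hairpins carrying a lesion meet the content of each cell, and a repair enzyme of the cell that cuts the hairpin leaves a shortened end whose position is read by sequencing. Uracil is removed by a uracil DNA glycosylase such as UNG, the abasic site that remains is cut by AP endonuclease, and an embedded ribonucleotide is cut by RNase H2.

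The 300 bases around the start sites of 4 genes that were high in cluster 4 (PLK1, CDC20, CCNB2 and HMMR) and of 2 that were low (E2F1 and CDC6) are shown because motifs known to time transcription in G2 and in G1/S can be seen in them. Each runs 5′ to 3′ from 250 bases before to 50 bases after the start, from RefSeq on GRCh38.p14, at chr16:23678639-23678938 (plus strand) for PLK1, chr1:43358731-43359030 (plus) for CDC20, chr15:59104896-59105195 (plus) for CCNB2, chr5:163460382-163460681 (plus) for HMMR, chr20:33686336-33686635 (minus) for E2F1 and chr17:40287629-40287928 (plus) for CDC6. Capitals mark matches on either strand to TTTGAA (the letters of the cell cycle homology region element), CCAAT (the NF-Y box), and TTTGGCGC or TTTCCCGC (E2F sites).
PLK1: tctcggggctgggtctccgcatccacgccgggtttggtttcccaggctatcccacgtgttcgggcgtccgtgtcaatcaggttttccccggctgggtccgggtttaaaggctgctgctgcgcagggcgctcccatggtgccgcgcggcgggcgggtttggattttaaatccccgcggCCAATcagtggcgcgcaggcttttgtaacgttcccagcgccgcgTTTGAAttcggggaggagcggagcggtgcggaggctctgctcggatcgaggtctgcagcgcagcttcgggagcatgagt
CDC20: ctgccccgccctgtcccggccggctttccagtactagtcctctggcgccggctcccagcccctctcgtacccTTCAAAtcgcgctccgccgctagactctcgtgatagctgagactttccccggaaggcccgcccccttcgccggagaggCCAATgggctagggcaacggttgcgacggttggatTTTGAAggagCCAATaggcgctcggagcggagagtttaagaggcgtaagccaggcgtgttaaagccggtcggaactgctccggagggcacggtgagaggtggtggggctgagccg
CCNB2: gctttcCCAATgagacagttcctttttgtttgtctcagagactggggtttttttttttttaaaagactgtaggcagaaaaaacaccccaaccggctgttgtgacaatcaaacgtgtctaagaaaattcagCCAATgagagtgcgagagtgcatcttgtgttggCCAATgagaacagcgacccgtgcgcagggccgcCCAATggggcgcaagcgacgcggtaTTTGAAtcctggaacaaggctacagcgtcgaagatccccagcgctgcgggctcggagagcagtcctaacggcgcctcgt
HMMR: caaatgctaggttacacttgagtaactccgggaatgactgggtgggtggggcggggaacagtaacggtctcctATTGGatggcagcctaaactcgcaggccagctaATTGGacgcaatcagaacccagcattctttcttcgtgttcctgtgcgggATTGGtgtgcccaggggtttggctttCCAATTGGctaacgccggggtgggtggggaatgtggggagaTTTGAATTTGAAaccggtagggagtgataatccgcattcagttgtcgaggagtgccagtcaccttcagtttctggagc
E2F1: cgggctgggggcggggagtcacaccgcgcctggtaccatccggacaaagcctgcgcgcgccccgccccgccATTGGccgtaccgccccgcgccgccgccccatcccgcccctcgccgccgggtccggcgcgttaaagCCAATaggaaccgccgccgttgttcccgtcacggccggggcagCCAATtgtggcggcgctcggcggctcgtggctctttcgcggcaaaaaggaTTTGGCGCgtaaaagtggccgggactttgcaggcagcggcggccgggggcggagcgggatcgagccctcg
CDC6: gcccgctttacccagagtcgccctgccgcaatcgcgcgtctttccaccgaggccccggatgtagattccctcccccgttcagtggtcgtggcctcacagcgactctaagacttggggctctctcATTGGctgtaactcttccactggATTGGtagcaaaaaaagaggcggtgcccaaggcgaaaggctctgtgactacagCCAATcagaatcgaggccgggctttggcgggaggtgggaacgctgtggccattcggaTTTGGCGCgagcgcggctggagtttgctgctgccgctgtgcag
TTTGAA began 29 bases before the start in PLK1 and in CCNB2, and 28 and 22 bases before it in HMMR. CDC20 had it 65 bases before the start, and its reverse complement 178 bases before. TTTGGCGC began 20 bases before the start in E2F1 and at base 7 after it in CDC6. RefSeq promoters were found for 77 of the 90 genes in the 4 mitotic lists described below, 94 promoters in all. TTTGAA was in 56 of them (59.6%), in 2 of 47 promoters of replication genes (4.26%) and in 15.2% of all 35116 promoters. An E2F site was in 5 mitotic promoters (5.32%), 17 replication promoters (36.2%) and 2.27% of all. CCAAT was in 64 mitotic (68.1%) and 32 replication promoters (68.1%), and in 34.6% of all. A match describes letters in the window and shows no binding.

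Cluster 4 cells were deeper at the median than all other cells, though not deeper than the G2M cells of cluster 3. Their median was 2232 UMIs (unique molecular identifiers, counted transcripts) over all genes with estradiol and 1872.5 with vehicle, where the median of all other cells was 1506 and 1136. On the 1253 panel genes the medians were 3912 and 3840.5 UMIs in cluster 4, against 2804.5 and 2840 in cluster 0 G2M cells, 5340 and 5920 in cluster 3 G2M cells and 2586 and 2290 in all other cells. Repair medians were 1528 and 1156 UMIs in cluster 4, against 1454.5 and 1103 in cluster 0 G2M cells, 1719 and 1313 in cluster 3 G2M cells and 1292 and 908 in all other cells. Levels below are in CPM, the summed UMIs of a gene in a cell group scaled so that every group has the same total, which takes out total depth; the part of depth in the remaining differences was not tested. Mitochondrial transcripts made up a median of 6.78% and 6.73% of UMIs in cluster 4 cells, against 7.69% and 7.77% in other cells. Of immune and endothelial markers on all-gene rows, 14 of 14 were at 0 in cluster 4 with estradiol and 13 of 14 with vehicle. On the panel 3 of 4 were at 0 in each treatment, and the remaining UMIs numbered 2 in each. All 16 luminal markers were above 0 on all-gene rows. Their sum was 7088 CPM with estradiol and 5949 CPM with vehicle in cluster 4, against 9226 and 8243 CPM in all other cells. Cluster 0 G2M cells had 7320 and 6199 CPM, so the lower sum was not particular to cluster 4. Basal markers on all-gene rows summed to 109 and 147 CPM in cluster 4, against 109 and 140 CPM in the others. Mesenchymal markers there summed to 212 and 308 CPM, against 217 and 304 CPM. On the panel the mesenchymal sum was higher in cluster 4, at 740 and 844 CPM, against 522 and 676 CPM in all other cells. Cluster 0 G2M cells had 458 and 573 CPM. Panel basal sums were 1366 and 1507 CPM in cluster 4, against 1206 and 1483 CPM in all other cells.

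The share of a cell's transcripts that came from mitotic genes was higher in cluster 4 than in the G2M cells of clusters 0, 3 and 7. The 4 lists on mitotic entry, the spindle and kinetochore, chromosome condensation, and anaphase and cytokinesis (90 genes) took 4.06% of all-gene UMIs in cluster 4 with estradiol and 4.47% with vehicle. They took 2.15% and 2.40% in cluster 0 G2M cells, 2.36% and 2.62% in G2M cells of cluster 7, 1.71% and 1.72% in those of cluster 3, and 0.400% and 0.323% in G1 cells. The G2M cells of cluster 0 thus stood between G1 and cluster 4 in both libraries. Within cluster 4 the share ran from 2.01% to 7.15% over cells with estradiol (median 4.03%) and from 1.5% to 8.39% with vehicle (median 4.61%). Of the cluster 4 cells, 226 of 252 with estradiol (89.7%) and 414 of 482 with vehicle (85.9%) lay above the 90th percentile of cluster 0 G2M cells in their library, which was 2.98% and 3.44%. In the other direction, 69 of 672 cluster 0 G2M cells with estradiol (10.3%) and 98 of 773 with vehicle (12.7%) lay above the 10th percentile of cluster 4, so the cell groups overlapped at their edges.

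**Figure D1:**
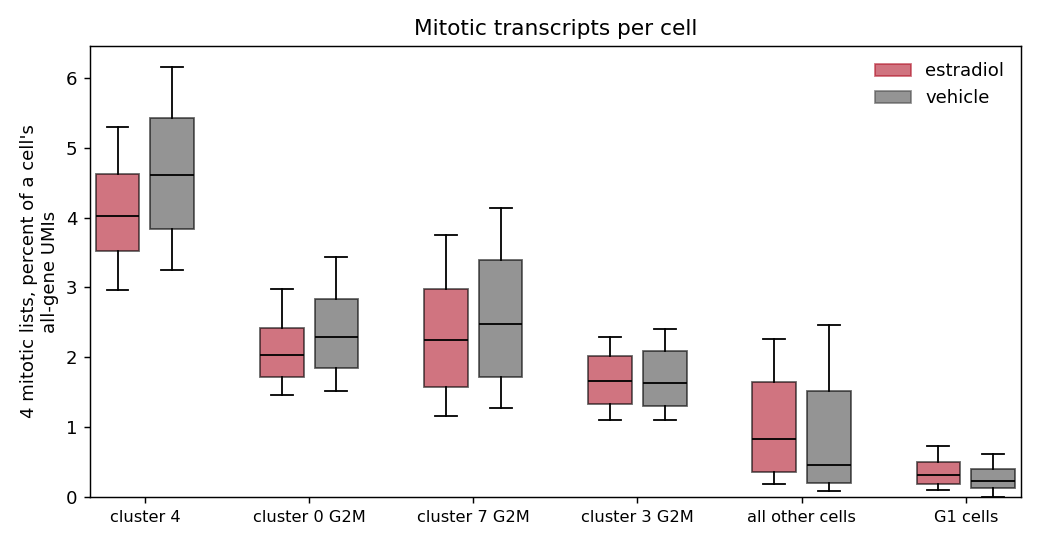
Percent of each cell's all-gene UMIs that came from the 90 mitotic genes, for each cell group and treatment. Cluster 4 had medians of 4.03% with estradiol and 4.61% with vehicle and stood above the G2M cells of clusters 0, 3 and 7. Boxes run from the lower to the upper quartile with a line at the median, and whiskers from the 10th to the 90th percentile of cells.

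Genes that drive entry into mitosis were high in cluster 4. Of the 4676 all-gene rows with enough UMIs to compare with all other cells, 4.47% were at least 1.5-fold higher in cluster 4 in both treatments and 2.37% at least 1.5-fold lower; on the panel these shares were 6.09% and 6.84% of 804. Of the mitotic entry list, 13 of 15 all-gene members and 6 of 7 panel members were at least 1.5-fold higher in both treatments. The median all-gene log2 ratio of the list was 1.98 with estradiol and 2.04 with vehicle, where the median over all genes compared was -0.03 and -0.01. CCNB1 (cyclin B1, chromosome 5, 69167150 to 69178245 on GRCh38.p14), the cyclin whose kinase starts mitosis, had 10197 panel CPM with estradiol and 10705 with vehicle in cluster 4, against 1267 and 1300 CPM in all other cells. These levels were 8.05-fold and 8.23-fold apart. PLK1 (chromosome 16, 23678889 to 23690367), the polo-like kinase that activates CDC25 and centrosomes, had 334 all-gene CPM with estradiol and 265 with vehicle in cluster 4, against 18.0 and 22.5 CPM in the others. Its log2 ratios were 4.22 (3.86 to 4.58) with estradiol and 3.56 (3.25 to 3.87) with vehicle. AURKA (aurora A, chromosome 20, 56369390 to 56392215), a kinase of centrosome maturation, had 4837 and 4541 panel CPM in cluster 4, against 538.5 and 497.7 CPM in the others. CCNB2 (cyclin B2), whose promoter is shown above, had 264 and 303 all-gene CPM in cluster 4, against 56.5 and 58.8 CPM in the others. CCNA2 (cyclin A2) was less far apart, with log2 ratios of 2.40 and 2.58, and so were the phosphatases that switch on the cyclin kinase, CDC25C (2.21 and 2.28) and CDC25B (1.75 and 1.94).

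The 2 all-gene list members short of 1.5-fold were PKMYT1 and, named after its values were seen, MYBL2. PKMYT1, which holds the cyclin kinase inactive, had 555 and 538 panel CPM in cluster 4, against 845 and 583 CPM in all other cells and 1099 and 1021 CPM in cluster 0 G2M cells, and so was lower in cluster 4. MYBL2, a transcription factor of S phase and G2 genes, had 53.8 and 52.1 all-gene CPM in cluster 4, against 82.0 and 45.3 CPM in all other cells. WEE1, the nuclear kinase with the same target, was higher in cluster 4, at 3255 and 3920 panel CPM, against 1852 and 2335 CPM in the others (log2 0.81 and 0.75).

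The spindle, condensation and exit lists were high as well. At least 1.5-fold higher in both treatments were 27 of 29 spindle and kinetochore genes, with a median log2 ratio of 1.98 with estradiol and 2.22 with vehicle. CENPE, the kinetochore motor that congresses chromosomes, had 1501 and 1570 all-gene CPM in cluster 4, against 187 and 223 CPM in other cells. CENPA, the histone H3 variant that marks centromeres, had 1045 and 1225 panel CPM in cluster 4, against 117 and 125 CPM. ASPM (spindle poles), HMMR (spindle assembly) and the checkpoint kinases BUB1 and TTK had log2 ratios between 2.28 and 3.01 in both treatments. For chromosome condensation 12 of 15 genes were past 1.5-fold, and TOP2A, the topoisomerase that decatenates sister chromatids, had log2 ratios of 1.88 and 2.15 on the panel. For anaphase and cytokinesis 20 of 21 genes were past 1.5-fold, with medians of 1.91 and 2.28. CDC20, the activator of the anaphase-promoting complex, had 245 and 292 all-gene CPM in cluster 4, against 35.9 and 30.6 CPM in other cells. KIF20A, a kinesin of the central spindle, had 222 and 251 CPM in cluster 4, against 16.5 and 21.8 CPM. KPNA2 (nuclear import), CEP55 (abscission) and PTTG1 (securin) had log2 ratios from 1.68 to 3.04. Among tubulins and their regulators, 4 of 12 were past 1.5-fold, led by TUBA1C, with 492 and 545 CPM in cluster 4, against 151 and 132 CPM.

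After each cell was thinned to 1200 panel UMIs, a CCNB1 UMI was present in 252 of 252 cluster 4 cells with estradiol and 482 of 482 with vehicle. It was present in 84.2% and 86.9% of cluster 0 G2M cells and in 97.8% and 95.6% of cluster 7 G2M cells. Presence in nearly all cells was thus not particular to cluster 4. In G1 cells, which had a median of 1 and 0 CCNB1 UMIs per cell before thinning, it was present in 32.9% and 30.3%. Free RNA can give such a UMI, and a share of cells with a UMI is not a share of cells that express the gene. An AURKA UMI was present in 98.4% and 98.8% of cluster 4 cells, against 65.1% and 69.1% of cluster 0 G2M cells and 16.0% and 13.2% of G1 cells. Median panel depth before thinning was 2326 and 1922 UMIs in G1 cells; 0 cluster 4 cells were left out by the thinning, and 46 of the other cells with estradiol and 292 with vehicle were.

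Genes of replication were low in cluster 4. Of the replication and S phase list, 24 of 32 all-gene members and 11 of 13 panel members were at least 1.5-fold lower than in all other cells in both treatments, with all-gene medians of -1.23 and -0.98. CCNE2 (cyclin E2, chromosome 8, 94880224 to 94896693), which starts S phase, had 75.6 and 104 panel CPM in cluster 4, against 533 and 434 CPM in other cells. At equal depth it was seen in 5.95% and 9.96% of cluster 4 cells, a smaller share than the 16.3% and 17.9% of G1 cells. Without thinning the cluster 4 shares were 19.4% and 26.6%. The G2M cells of cluster 7 were near cluster 4, with CCNE2 in 9.68% and 15.1% of thinned cells. They had MCM5 in 21.5% and 16.6%, against 17.9% and 16.4% in cluster 4. Few cells with a UMI of these genes was thus not particular to cluster 4. E2F1, the transcription factor of S phase genes, had 182 and 152 CPM in cluster 4, against 802 and 523 CPM. The helicase subunit MCM5 had log2 ratios of -2.29 and -1.88, the origin licensing factor CDC6 -1.75 and -1.33, and the polymerase clamp PCNA -1.37 and -1.20. Replication genes took 0.233% and 0.212% of all-gene UMIs in cluster 4, against 0.472% and 0.460% in cluster 0 G2M cells and 0.244% and 0.171% in G1 cells.

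CCND1, the G1 cyclin whose gene is amplified in this line, was lower in cluster 4 than elsewhere. It had 106382 panel CPM with estradiol and 61449 with vehicle in cluster 4, against 151818 and 118176 CPM in all other cells. The gap was wider in the vehicle library, with log2 ratios of -0.51 with estradiol and -0.94 with vehicle. Beside cluster 0 G2M cells it was nearly level, at -0.10 and -0.04.

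Set against cluster 0 G2M cells, cells that carry the same phase call, the mitotic genes were still apart. On all-gene rows 4.55% of 1518 genes were at least 1.5-fold higher in cluster 4 in both treatments and 2.5% at least 1.5-fold lower; on the panel these were 3.43% and 6.29% of 700. Higher were 6 of 10 mitotic entry genes (median log2 1.09 with estradiol, 1.14 with vehicle), 18 of 25 spindle genes (1.12 and 1.08), 14 of 16 anaphase genes (1.13 and 1.16) and 4 of 11 condensation genes (0.63 and 0.51). The median over all genes compared was -0.00 and -0.01. CCNB1 was 3.99-fold and 4.03-fold higher in cluster 4 than in cluster 0 G2M cells, whose levels were 2556 and 2654 CPM. PLK1 was 8.84-fold higher with estradiol and 4.68-fold with vehicle, over 37.8 and 56.6 CPM in cluster 0 G2M cells. CDC20 was 3.44-fold and 5.00-fold higher, over 71.3 and 58.4 CPM. TOP2A was closer, with log2 ratios of 0.67 and 0.70 from 54388 and 66658 panel CPM in cluster 4.

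Some of the panel genes named by rank lay outside the mitotic lists. MEX3A, an RNA-binding protein, had 1706 and 1611 panel CPM in cluster 4, against 510 and 485 CPM in cluster 0 G2M cells and 492 and 470 CPM in all other cells. It was thus level between the cluster 0 G2M cells and the rest, and high in cluster 4. E2F5, a repressive E2F protein, had 340 and 349 CPM in cluster 4, against 151 and 126 CPM in cluster 0 G2M cells. PIM1, a survival kinase, had 143 and 142 CPM, against 50.8 and 56.9 CPM. BCL2, which blocks mitochondrial apoptosis, and MDM2, which degrades p53, were less far apart, at log2 0.69 and 0.97 for BCL2 and 0.74 and 0.55 for MDM2.

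**Figure D2:**
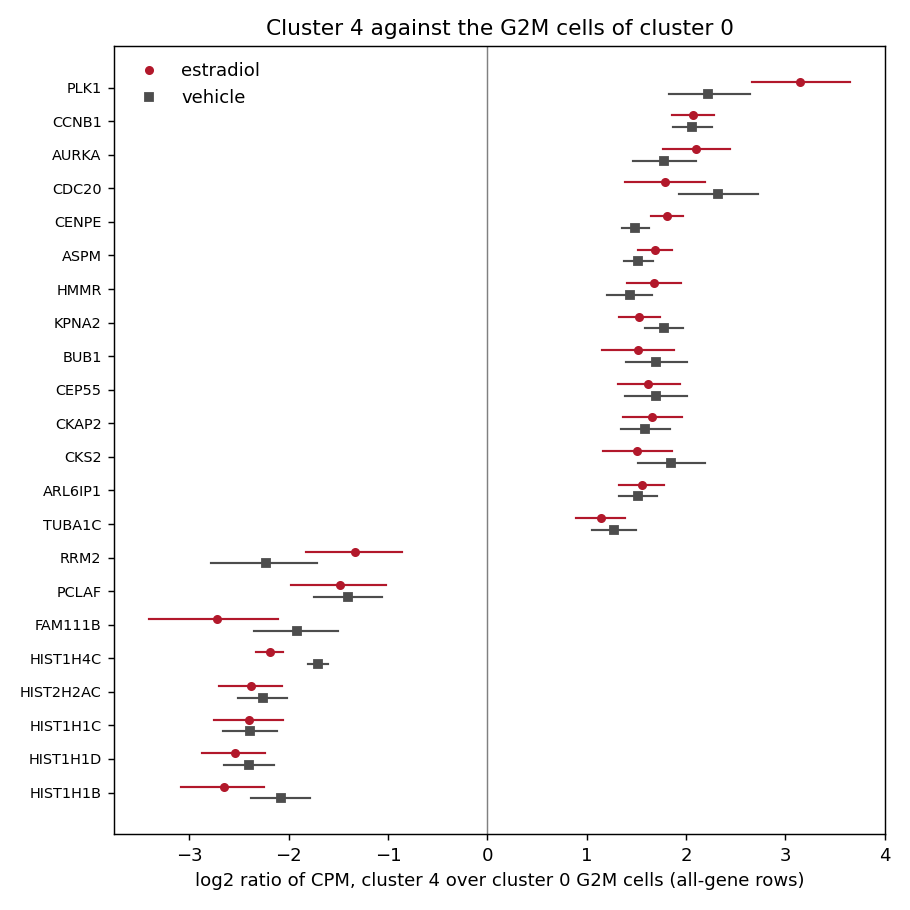
Log2 ratio of CPM, cluster 4 over cluster 0 G2M cells, for named genes on all-gene rows in each treatment, with 95% counting intervals. Mitotic genes lie to the right of 0, with CCNB1 at 2.07 and 2.06, and replication and histone genes to the left, with HIST1H1C at -2.40 and -2.39.

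Histone transcripts were far lower in cluster 4 than in cluster 0 G2M cells. All 10 replication-dependent histone genes compared on all-gene rows, and all 5 on the panel, were at least 1.5-fold lower in cluster 4 than in cluster 0 G2M cells in both treatments, with all-gene medians of -2.39 and -2.10. HIST1H1C (linker histone H1.2) had 1681 and 1932 panel CPM in cluster 4, against 8952 and 9877 CPM in cluster 0 G2M cells and 902 and 951 CPM in G1 cells. HIST1H4C (histone H4) had 813 and 966 all-gene CPM in cluster 4, against 3714 and 3153 CPM. The 19 histone genes took 0.169% and 0.192% of UMIs in cluster 4, against 0.814% and 0.736% in cluster 0 G2M cells and 0.0861% and 0.0699% in G1 cells. G2M cells of cluster 7 had shares near those of cluster 4, 0.136% and 0.160%. Histone genes are near-identical copies, so reads may be split among them, and the level of a single copy is uncertain. Replication genes went with them: 8 of 9 all-gene members and 11 of 12 panel members were at least 1.5-fold lower than in cluster 0 G2M cells, including CCNE2 (log2 -2.39 and -2.08), E2F1 (-1.66 and -1.57) and HELLS, a chromatin remodeller (-1.54 and -1.57).

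Repair genes on the panel were taken by pathway. Over all 700 panel genes compared with cluster 0 G2M cells, 6.29% were at least 1.5-fold lower in cluster 4 and 3.43% higher. Of mismatch repair genes, 4 of 7 panel members were at least 1.5-fold lower than in cluster 0 G2M cells; MSH6, which recognises mismatches, had 722 and 594 CPM in cluster 4, against 1337 and 1258 CPM in cluster 0 G2M cells. Of the homologous recombination and Fanconi list 8 of 26 were lower and 0 higher past 1.5-fold, with medians of -0.46 and -0.55. BLM, a helicase of recombination, had 509 and 438 CPM in cluster 4, against 877 and 866 CPM. RAD54L, a DNA translocase of recombination, had 159 and 141 CPM, against 328 and 344 CPM. PARP2, which marks strand breaks with poly(ADP-ribose), had 410 and 397 CPM in cluster 4, against 737 and 700 CPM, and its paralog PARP1 had 3798 and 3386 CPM, against 5352 and 4512 CPM. Of 7 break signalling and 4 end joining genes on the panel, 0 were past 1.5-fold in either direction. With so few genes this count lies near the shares over all panel genes. The medians were -0.02 and -0.21 for break signalling and -0.26 and -0.23 for end joining. Within these lists MDC1 (chromosome 6, 30699807 to 30717281), the mediator that binds phosphorylated H2AX at breaks, had 1070 and 1183 CPM in cluster 4, against 789 and 900 CPM in cluster 0 G2M cells and 812 and 814 CPM in all other cells. Its ratio stayed below 1.5-fold. XRCC4, which holds the end joining ligase, had log2 ratios of 0.48 and 0.46.

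UNG (chromosome 12, 109097597 to 109110992), the main uracil glycosylase, was measured on all-gene rows alone, from 5 UMIs with estradiol and 9 with vehicle in cluster 4. It had 8.40 and 9.02 CPM in cluster 4, against 15.0 and 21.2 CPM in cluster 0 G2M cells and 43.99 and 30.4 CPM in all other cells. Against other cells the log2 ratios were -2.39 (-4.02 to -1.15) and -1.75 (-2.91 to -0.80); against cluster 0 G2M cells the estradiol interval, -2.63 to 0.67, held 0 and the vehicle interval was -2.52 to -0.08. RNASEH2A, the catalytic subunit of RNase H2, had 28.6 and 10.0 CPM from 17 and 10 UMIs in cluster 4, against 36.1 and 23.0 CPM in cluster 0 G2M cells. TOP1, which can also cut at ribonucleotides, had 8684 and 9649 panel CPM in cluster 4, against 6683 and 7791 CPM.

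The repair readout of the same cells differed by hairpin. The files hold 9 hairpins read at 61 positions each, and their names (Uracil1 to Uracil3, GU, Abasic, riboG, TI, CI and Normal) are not defined in the labels, so they are used as written. For counting, Uracil1 to Uracil3, GU, Abasic and riboG were grouped as 6 lesion hairpins. That grouping rests on the names alone, and whether TI and CI carry a lesion is not stated. The repair signal is the percent of a hairpin's UMIs that ended at positions 44 to 50. This window held the highest position of Abasic and Uracil1; on the other 4 lesion hairpins the highest position lay outside it, at 20 on Uracil2 and Uracil3, 6 on GU and 9 on riboG, and most ends fell outside the window. The window was chosen with earlier results of these data known. On Uracil1 it was 21.7% (21.3 to 22.2) with estradiol and 22.7% (22.3 to 23.1) with vehicle in cluster 4. Cluster 0 G2M cells gave 27.7% and 28.7%, and all other cells 28.6% and 28.1%. The ratio of cluster 4 to cluster 0 G2M cells was 0.784 (0.763 to 0.805) with estradiol and 0.792 (0.773 to 0.811) with vehicle. Cell by cell, the middle 50% of cluster 4 cells ran from 14.8% to 22.9% with estradiol and from 16.3% to 26.5% with vehicle, and that of cluster 0 G2M cells from 21.6% to 31.9% and from 21.7% to 33.1%, so single cells of the 2 groups overlapped.

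The other uracil hairpins were low in cluster 4 too. Uracil2 gave 11.6% and 12.5% in cluster 4, against 14.8% and 15.4% in cluster 0 G2M cells. Uracil3, the one with the fewest reads (4053 UMIs in cluster 4 with estradiol), gave 7.65% and 6.72%, against 10.9% and 11.1%, with ratios of 0.701 (0.616 to 0.796) and 0.605 (0.536 to 0.681). GU gave 6.32% and 6.47% in cluster 4, against 8.44% and 8.10% in cluster 0 G2M cells. Abasic, the hairpin that starts after the glycosylase step, was closer: 53.03% and 56.3% in cluster 4, against 58.2% and 61.9%, with ratios of 0.911 (0.892 to 0.930) and 0.909 (0.893 to 0.925).

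The ribonucleotide hairpin went the other way. RiboG gave 7.55% (7.28 to 7.83) with estradiol and 8.10% with vehicle in cluster 4, against 5.89% and 7.15% in cluster 0 G2M cells and 5.85% and 5.87% in all other cells. The G2M cells of cluster 3 gave 7.43% and 9.15%, so a high riboG signal was not particular to cluster 4. Its ratios over cluster 0 G2M cells were 1.28 (1.22 to 1.34) and 1.13 (1.09 to 1.18). The control hairpin Normal gave 0.116% and 0.121% in cluster 4, against 0.113% and 0.104%. Outside the window, however, Normal differed between the cell groups as well. Its position 9 held 11.7% and 11.6% of its UMIs in cluster 4, against 13.4% and 13.6% in cluster 0 G2M cells. These ratios were 0.872 and 0.855, so a difference between the groups was not limited to hairpins named for a lesion. G2M cells are not of one kind in this readout. Those of cluster 7 had lower uracil signal than cluster 4, with 19.5% and 20.2% on Uracil1, 10.0% and 10.3% on Uracil2, and 4.48% and 4.72% on Uracil3. They were lower than cluster 4 on GU as well, at 4.54% and 4.56%. Their Abasic signal was higher, at 66.6% and 66.8%, whereas those of cluster 3 had 40.5% and 43.0% on Abasic. On Uracil1 the cluster 3 G2M cells gave 24.2% and 23.7%, nearer to cluster 4 than to cluster 0 G2M cells. At its position 45 they had 12.5% and 12.1%, against 12.9% and 13.8% in cluster 4. A low Uracil1 signal was thus not particular to cluster 4, and given the cluster 7 values neither was a low Uracil2, Uracil3 or GU signal. On Uracil2 (14.96% and 15.76%), Uracil3 (11.97% and 12.71%) and GU (10.1% and 9.72%) cluster 3 G2M cells were above cluster 4. Whether the transcript levels of UNG, RNASEH2A or TOP1, or the repair depth, bear on these signals was not tested.

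**Figure D3:**
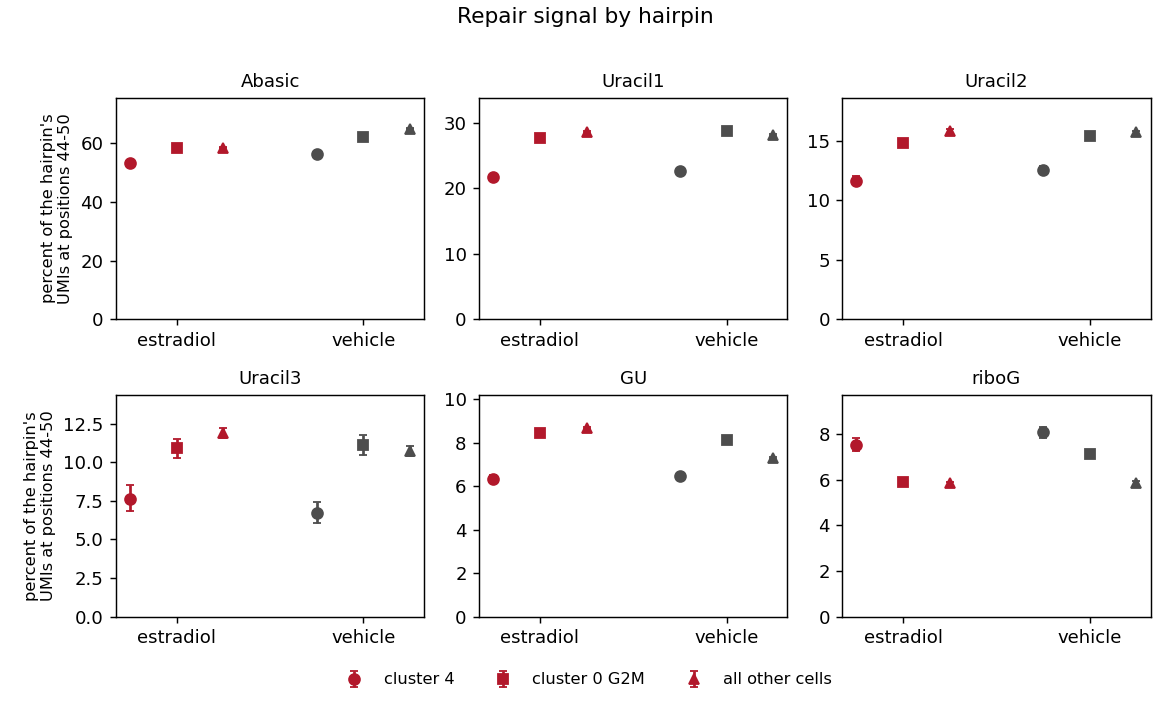
Percent of each hairpin's UMIs at positions 44 to 50, by cell group and treatment, for 6 hairpins, with 95% binomial intervals (counting error only). Cluster 4 is below cluster 0 G2M cells on Abasic, the uracil hairpins and GU, and above them on riboG, in both treatments.

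Within the window the highest position was the same in both cell groups. On Uracil1 the highest position of the window was 45, with 12.9% of UMIs in cluster 4 with estradiol and 13.8% with vehicle, against 16.7% and 17.5% in cluster 0 G2M cells. On riboG position 45 held 3.29% and 3.70% in cluster 4, against 2.44% and 3.13%. On Abasic the highest position was 46, with 38.8% and 40.6% in cluster 4, against 42.7% and 44.7%.

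**Figure D4:**
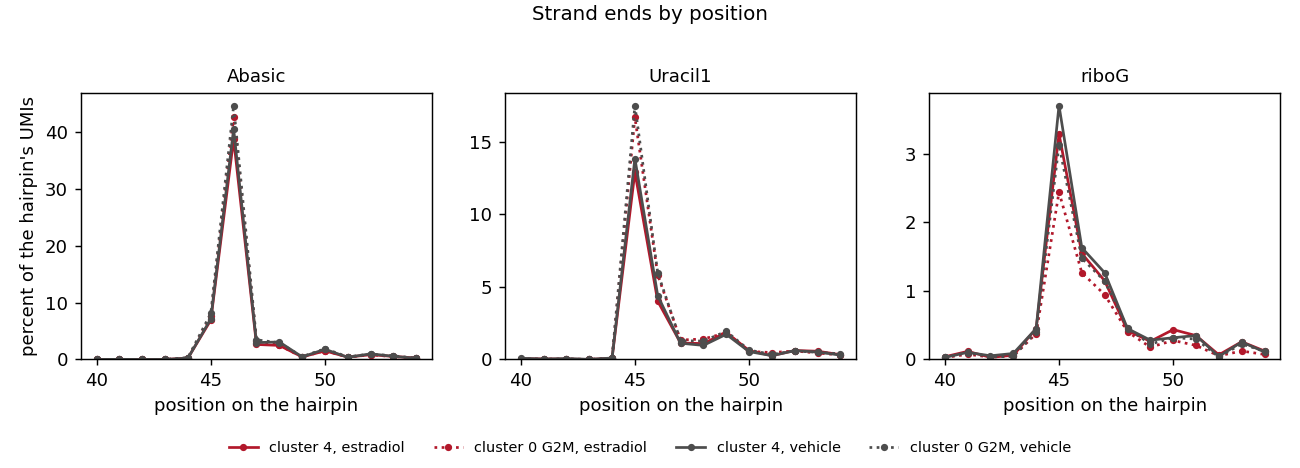
Percent of UMIs at each position from 40 to 54 of the Abasic, Uracil1 and riboG hairpins, cluster 4 (solid) and cluster 0 G2M cells (dotted), with estradiol and with vehicle. The peaks fall at the same positions in both cell groups, 46 on Abasic and 45 on the others.

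Estradiol and vehicle were then compared inside cluster 4. Genes known to be induced by estrogen were higher with estradiol. Of the list, 10 of 16 all-gene members were at least 1.5-fold higher and all 16 were above 1, with a median log2 ratio of 0.73. On the panel 6 of 8 were past 1.5-fold (median 0.90). The list was chosen with earlier results of these data known, so its counts are a description. Over all genes compared, 3.29% of 2920 all-gene rows were past 1.5-fold in the higher direction and 4.04% in the lower; on the panel these were 3.52% and 7.29% of 768. The median panel gene had a log2 ratio of -0.10, while CCND1 had 106382 panel CPM with estradiol and 61449 with vehicle in cluster 4. Panel counts were 27 higher and 56 lower with total scaling, and 34 higher and 32 lower with median-of-ratios scaling, which brings that median near 0. PEG3, an imprinted zinc finger gene (chromosome 19, 56810082 to 56840726), had 380 all-gene CPM with estradiol and 90.2 with vehicle in cluster 4, a log2 ratio of 2.07 (1.72 to 2.44). GREB1 (chromosome 2, 11482888 to 11642788), a cofactor of the estrogen receptor, had 136 CPM with estradiol and 40.1 with vehicle. AREG (amphiregulin, a ligand of the EGF receptor) had 321 and 112 CPM, IGFBP4 (an IGF-binding protein) 286 and 105 CPM, and STC2 (stanniocalcin) 136 and 53.1 CPM. MYC had 214 panel CPM with estradiol and 83.3 with vehicle (log2 1.36, 1.07 to 1.66), and WNT4, a secreted signal known in lobular lines, 205 and 85.7 CPM (1.26, 0.96 to 1.55). ZNF703, a luminal transcription cofactor, had 10690 and 4702 CPM.

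These differences were of like size outside the cluster for some genes and not for others. In cluster 0 G2M cells the log2 ratio was 1.74 for PEG3, 1.42 for GREB1, 1.37 for WNT4 and 1.11 for ZNF703. MYC had 1.36 in cluster 4, 1.1 in cluster 0 G2M cells and 0.59 in all other cells, and CCND1 had 0.79, 0.85 and 0.36. ITGA2, the collagen-binding integrin chain (chromosome 5, 52989352 to 53094779), had 89.0 CPM with estradiol and 38.0 with vehicle in cluster 4, from 93 and 79 UMIs, a log2 ratio of 1.23 (0.78 to 1.68). In cluster 0 G2M cells its ratio was -0.24 (-0.64 to 0.15) and in all other cells -0.56 (-0.69 to -0.42). The 5 cells with the most ITGA2 held 28.0% of its UMIs in cluster 4 with estradiol and 34.2% with vehicle. These differences between cell groups were not tested. PGR, the progesterone receptor and a classical target, was near its detection limit at 24 and 15 panel UMIs in cluster 4 (log2 1.67, 0.68 to 2.71). ESR1, the receptor itself, had 2464 CPM with estradiol and 2474 with vehicle.

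Genes known to be repressed by estrogen, a list also chosen with earlier results of these data known, were lower. On all-gene rows 3 of 3 members were lower. On the panel 10 of 12 members were at least 1.5-fold lower with estradiol and 1 higher, with a median of -0.90. The higher one, named after its values were seen, was IRS2, an adaptor of the insulin receptor, at 152 CPM with estradiol and 99.1 with vehicle. TXNIP (chromosome 1, 145992435 to 145996579), a thioredoxin inhibitor that limits glucose uptake, had 504 panel CPM with estradiol and 2076 with vehicle in cluster 4, a log2 ratio of -2.04 (-2.17 to -1.91), near the -2.19 of cluster 0 G2M cells. IL1R1, an interleukin receptor, had 256 and 601 CPM, BTG2, an antiproliferative gene, 256 and 565 CPM, and SMAD3, a TGF-beta effector, 498 and 1029 CPM. CCNG2, a cyclin linked to cell cycle arrest, had 40.3 and 109 all-gene CPM. STOM, a membrane scaffold, had 150 and 308 CPM in cluster 4, a log2 ratio of -1.04 (-1.30 to -0.78), where cluster 0 G2M cells had -0.55 (-0.70 to -0.40).

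**Figure D5:**
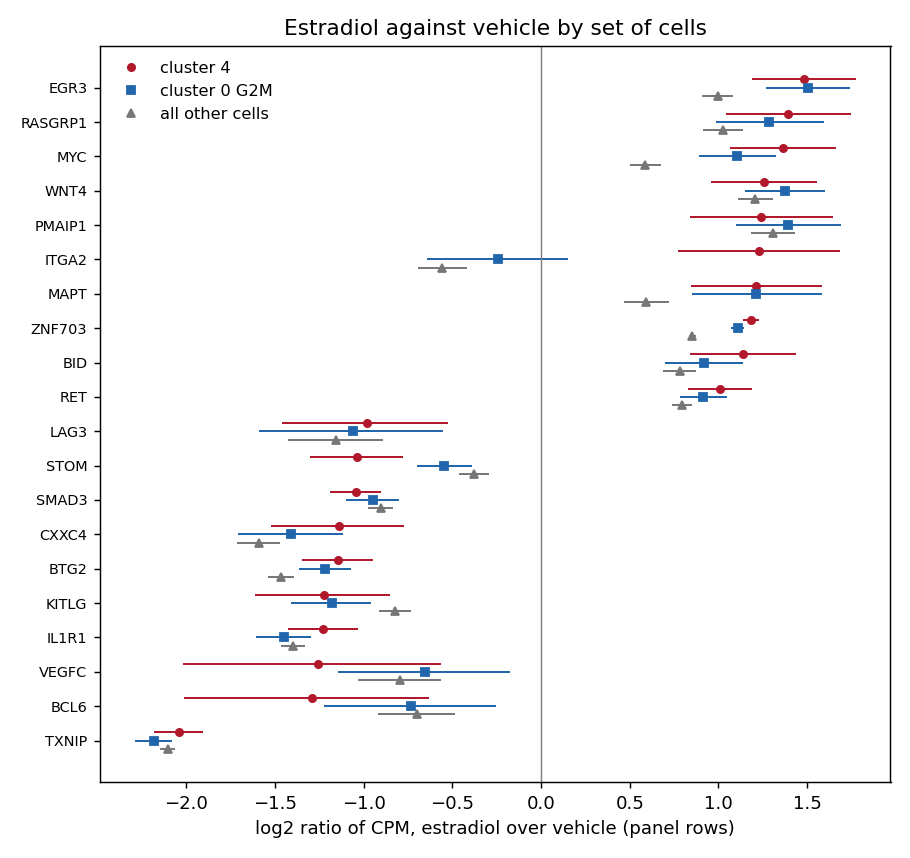
Log2 ratio of estradiol over vehicle for the panel genes named inside cluster 4, with the same ratio in cluster 0 G2M cells and in all other cells, and 95% counting intervals. TXNIP is at -2.04 in cluster 4 and -2.19 in cluster 0 G2M cells, whereas ITGA2 is above 0 in cluster 4 (1.23) and below 0 in all other cells (-0.56).

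The mitotic genes themselves stayed within 1.5-fold between treatments. Of the 4 mitotic lists, 0 genes were past 1.5-fold in either direction between estradiol and vehicle in cluster 4, over 14 mitotic entry, 29 spindle, 15 condensation and 22 anaphase genes. Their median log2 ratios were -0.09, -0.17, 0.00 and -0.10. PKMYT1 was too sparse on all-gene rows to be counted there (log2 1.33 from 30 UMIs with estradiol and 20 with vehicle) and had 0.05 on the panel. Membership of the cluster may rest on such genes, which would bear on this comparison. TOP2A, at 54388 CPM with estradiol and 66658 with vehicle, had a log2 ratio of -0.29.

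On the 6 lesion hairpins the repair signals with estradiol and vehicle were within 1.5-fold of each other in cluster 4. The ratio of estradiol to vehicle was 0.943 (0.922 to 0.964) on Abasic, 0.957 (0.928 to 0.986) on Uracil1, 0.928 on Uracil2, 1.14 (0.977 to 1.33) on Uracil3, 0.976 (0.941 to 1.01) on GU and 0.933 (0.888 to 0.98) on riboG. Cluster 0 G2M cells gave 0.941, 0.966, 0.959, 0.982, 1.04 and 0.823 in that order of hairpins. On GU all other cells gave 1.19 and on riboG 0.996. By the window share, the gap between treatments inside cluster 4 was smaller than that between cluster 4 and cluster 0 G2M cells on each of these 6 hairpins. On Abasic this order depended on the measure. By the share of all repair UMIs, its log2 ratio was -0.18 between treatments in cluster 4. Between the cell groups it was then -0.06 with estradiol and -0.05 with vehicle. With equal weight to each cell these 3 values were -0.11, -0.12 and -0.10. Inside cluster 0 G2M cells the treatment gap on riboG (0.823) was larger than the gap between the cell groups with vehicle (1.13). The other 3 hairpins had little signal in the window. TI had 0.205% with estradiol and 0.277% with vehicle in cluster 4, a ratio of 0.740 (0.618 to 0.884), and 0.851 (0.747 to 0.969) in cluster 0 G2M cells. On TI the treatment gap in cluster 4 was larger than the gap between the cell groups. The ratio of cluster 4 to cluster 0 G2M cells there was 1.03 (0.870 to 1.23) with estradiol and 1.19 (1.03 to 1.37) with vehicle. CI and Normal had ratios of 0.95 (0.642 to 1.39) and 0.958 (0.687 to 1.33) in cluster 4.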

How the data were processed

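Messenger RNA and Haircut repair reads were measured in 1 library per treatment and assay. Per the submitters' processing notes, the upstream tools were UMI-tools 0.5.3, SAMtools, Bowtie2 2.3.2, cutadapt 1.8.3 and Cell Ranger 3.0.2, on the hg38 build. No source used here states how cells were filtered, clustered or given a phase; clusters and phases are the authors' deposited ones. The deposited expression values are natural log values of 1 plus 10000 times a count over the cell's total in its block (33538 all-gene, 1253 panel and 549 repair rows). Counts were recovered by inverting this: within 1e-06, 100% of the nonzero values were whole, and sums matched the cell totals deposited by the authors in 100% of cells. The percent of mitochondrial reads was used as the authors deposited it. Panel and all-gene rows come from the same cells. No column of another series was used.

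UMIs were summed per cell group and treatment and scaled to the block total. Cluster 4 sums were 595082 all-gene, 1045032 panel and 391483 repair UMIs with estradiol, and 997779, 2078018 and 551655 with vehicle. Ratios carry exact 95% intervals (binomial, given the summed count), and shares exact Clopper-Pearson intervals; with 1 library per group there is no test across replicates. Genes needed 200 UMIs over both groups in each treatment for cluster comparisons (100 for estradiol against vehicle) and 20 CPM in 1 group; list members entered under the same minimums, and could be named from 50 UMIs. A fold of 1.5 was used for counts. Genes named are the 12 highest and 12 lowest per cluster comparison and the 10 highest and 10 lowest for estradiol, among genes whose intervals exclude 1, up to 4 from each list, and a fixed set including MDC1, ESR1, PGR and PARP1. Members and gene lists were chosen with earlier results of these data known. The scripts were tested on simulated data. Cells were thinned to 1200 panel UMIs for detection. The libraries share 4 cell barcodes, 0 of them in cluster 4; no doublet caller was run, and the 5% of cells with most UMIs were left out as an alternative. RefSeq coordinates were matched for 262 of 289 named genes. Python 3.11.15, numpy 2.4.6, scipy 1.17.1, pandas 2.3.3 and matplotlib 3.10.9 were used.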

Additional observations from a re-analysis of the deposited data

Results flagged for a closer look

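Among 127 panel and 225 all-gene named genes, looked at in 3 contrasts (cluster 4 over all other cells and over cluster 0 G2M cells in each treatment, and estradiol over vehicle in cluster 4 and in cluster 0 G2M cells), 7 genes had ratios in opposite directions, each with a counting interval that excludes equal levels, and 0 of 9 hairpins did. The difference between the 2 ratios was not tested. Genes named by rank in a cluster comparison had to go the same way in both treatments. They could not be opposite in that contrast, so the count of 7 is partly set by how genes were named. Inside cluster 4, estradiol over vehicle was 0.34 on the log2 scale for PLK1 (0.07 to 0.61), against -0.58 in cluster 0 G2M cells (-1.17 to -0.00), -0.25 for HIST1H4C, against 0.24, and 0.84 for NR4A1, an immediate early nuclear receptor, against -0.38. Cluster 4 over all other cells was -0.24 with estradiol and 0.33 with vehicle for HIST1H3G. It was 0.15 with estradiol and -0.18 with vehicle for ZNF703 on the panel, and 0.24 and -0.25 on all-gene rows. For PNRC1, a nuclear receptor coactivator, it was 0.17 with estradiol and -0.22 with vehicle.

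For NR4A1, cluster 4 over all other cells was 0.54 with estradiol and -0.70 with vehicle, and for DDIT4, a stress-induced inhibitor of mTOR, 0.86 and -0.27. A single estradiol cell of cluster 4 held 44 of the 117 NR4A1 UMIs (37.6%) and 43 of the 76 DDIT4 UMIs (56.6%). Without that cell, a step chosen after seeing the data, the estradiol ratios to all other cells were -0.13 (-0.50 to 0.22) for NR4A1 and -0.33 (-0.89 to 0.18) for DDIT4. For estradiol over vehicle in cluster 4, the cell with the most UMIs of the gene was left out of each library. NR4A1 was then 0.34 (-0.10 to 0.77), and DDIT4 went from -0.12 to -1.24 (-1.83 to -0.69). Estradiol over vehicle in cluster 4 and in all other cells was not among the 3 contrasts; there ITGA2 had 1.23 and -0.56 on the panel.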

How the results depend on the processing

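No paired analysis was possible because each treatment and assay has 1 library. Of the comparisons of the main results with their alternatives (other scalings, equal weight to each cell, the 5% deepest cells left out, a lower minimum, other repair windows), 61 stayed within 1.5 times or their counting interval and 7 moved. With median-of-ratios scaling, 32 panel genes were at least 1.5-fold lower with estradiol in cluster 4, against 56 with total scaling. With a minimum of 50 UMIs, which adds genes, the all-gene counts were 366 higher and 195 lower in cluster 4 against all other cells (209 and 111 at the usual minimum), 190 and 141 against cluster 0 G2M cells (69 and 38), and 234 higher and 366 lower with estradiol (96 and 118). Without the cell with the most UMIs, DDIT4 in cluster 4 over all other cells with estradiol turned to -0.33. For single genes, lists and single hairpins together 3265 values stayed and 297 moved; these include 15 hairpin ratios by the highest position alone, 9 by the share of all repair UMIs and 16 without the 5% of cells with the most repair UMIs. The estradiol ratios of CCNB1, TTK and ESR1 in cluster 4, all within 0.07 of 0, change sign under median-of-ratios scaling. Of 30 ratios of lesion hairpins, 0 changed direction under 4 alternatives. Depth limits UNG and RNASEH2A on all-gene rows and PGR on the panel, which rest on 5 to 24 UMIs in cluster 4.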

Other observations

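All 13 mitochondrially encoded genes were lower in cluster 4 than in all other cells in both treatments, with median log2 ratios of -0.19 and -0.20, and lower than in cluster 0 G2M cells, with -0.19 and -0.19. Of these, 0 were past 1.5-fold. The medians over every all-gene row compared were -0.03 and -0.01 against all other cells, and -0.001 and -0.01 against cluster 0 G2M cells. Of luminal genes on all-gene rows, 1 of 12 was at least 1.5-fold lower than in all other cells (2.37% of all genes compared were), with medians of -0.34 and -0.42. On the panel 0 of 7 were, with 3 above and 4 below 1 and medians of -0.22 and -0.34. The summed luminal levels of cluster 0 G2M cells, 7320 and 6199 CPM on all-gene rows, were also below those of all other cells, 9226 and 8243 CPM. Inside cluster 4, on all-gene rows, 12 of 13 heat shock chaperone genes were above 1 with estradiol over vehicle, with a median of 0.30, and 1 of 13 was past 1.5-fold, where 3.29% of all genes compared were. Among them was HSPA8, which folds nascent proteins, at 585 CPM with estradiol and 432 with vehicle. Of glycolysis and hypoxia genes 10 of 11 were above 1, with a median of 0.20 and 2 past 1.5-fold. On the panel 1 of 3 was above 1, with a median of -0.20. For estradiol over vehicle in cluster 4, the median over all genes compared was -0.003 on all-gene rows and -0.10 on the panel. The share of all genes above 1 was not counted.

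The immediate early genes FOS and JUN were lower in cluster 4 with estradiol than with vehicle, at 435 and 710 panel CPM for FOS and 678 and 1062 CPM for JUN, whereas EGR3 was higher, at 236 and 84.7 CPM. NEIL3, a glycosylase for oxidised bases, had 65.5 CPM with estradiol and 26.1 with vehicle in cluster 4, from 39 and 26 UMIs, against 17.6 and 32.7 CPM in cluster 0 G2M cells and 13.3 and 11.8 CPM in all other cells.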
